A study of Mus musculus with 2 samples.

Results

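Heart macrophages without a detected transcript of MHC class II or of Ccr2 were described here in 2 single-cell libraries of mouse heart. A barcode was a member when it had at least 200 detected genes, when Ryr2 and Myh6 made up less than 0.6% of its unique molecular identifiers (UMIs, each counting 1 captured RNA molecule), and when F13a1, Mrc1, Adgre1, Csf1r and Cd163 together gave 3 or more UMIs and at least 3 times each of 2 other sets, the fibroblast genes Pdgfra, Col1a2 and Col3a1 and the endothelial genes Flt1, Cdh5 and Kdr. The last condition was 0 UMIs of Cd74, H2-Aa, H2-Ab1, H2-Eb1 and Ccr2 together. Members were thus chosen by measured values, and the levels of those 18 genes are a description and not a result. The rule found 791 of 9934 Sham barcodes (7.96%, 95% interval 7.44 to 8.51) and 732 of 9931 barcodes after transverse aortic constriction (TAC; 7.37%, 6.86 to 7.90), together 1523 of 19865 such barcodes in both libraries.

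Both libraries came from hearts of C57BL/6 mice, dissociated to single cells and run on the 10X Chromium platform, and each combined the cells of 3 to 5 hearts. TAC, in which the aortic arch is tied so that the left ventricle must pump against a raised pressure, was done in male mice at 8 weeks of age and lasted 6 weeks. Sham mice had the operation without constriction by the sample labels, while the design text of the series calls them uninjured. No age at operation and no time after it were noted for the Sham sample. No other treatment, transgene or deletion was given for either group, and each condition was 1 library, so there was no replicate and no test, and a difference between conditions cannot be told apart from a difference between libraries. Intervals in brackets are 95% intervals that cover counting error only.

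In the adult heart, macrophages that settled before birth persist largely by self-renewal, and many of them carry TIMD4, LYVE1 and FOLR2 and little MHC class II. Macrophages that carry CCR2 derive from blood monocytes, and class II molecules present peptides to helper T cells. The class II genes are switched on by the co-activator CIITA, which is recruited to the X and Y boxes of their promoters by the RFX and NF-Y factors. Resident macrophages clear dead cells and debris, handle iron and lipids, and secrete growth factors and chemokines.

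The promoters of a pair of class II genes, H2-Eb1 (used by the rule) and H2-DMb1 (not used by it), are shown because both hold matches to the X and Y boxes. A part of Ciita in the members' lack of class II UMIs was not tested. The X box core was searched as ACNGATG, the Y box as CCAAT, a PU.1 site as GAGGAAG and a MAF half-site as TGCTGAC, on both strands, and matches are in capitals. Sequences are RefSeq promoters of build GRCm38.p6, written 5′ to 3′ on the strand of the gene, from 250 bases before to 50 bases after the start site. H2-Eb1 lies at chr17:34305617-34305916 and H2-DMb1 at chr17:34152941-34153240, both on the + strand.
H2-Eb1: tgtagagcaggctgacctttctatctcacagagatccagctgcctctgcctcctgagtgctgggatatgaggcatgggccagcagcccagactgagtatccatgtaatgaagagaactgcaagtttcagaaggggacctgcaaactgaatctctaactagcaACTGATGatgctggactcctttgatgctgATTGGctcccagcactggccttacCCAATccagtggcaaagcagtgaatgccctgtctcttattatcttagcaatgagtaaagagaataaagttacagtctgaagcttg
H2-DMb1: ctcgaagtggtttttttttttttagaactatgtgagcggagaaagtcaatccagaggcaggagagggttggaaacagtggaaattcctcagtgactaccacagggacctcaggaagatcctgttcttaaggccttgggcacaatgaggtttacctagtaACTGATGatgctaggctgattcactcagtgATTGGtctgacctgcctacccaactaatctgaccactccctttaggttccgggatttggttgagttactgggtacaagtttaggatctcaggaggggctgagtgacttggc
The X box core stood 88 bases before the H2-Eb1 start site and 91 bases before that of H2-DMb1, in both as ACTGATG, with a Y box read on the other strand (ATTGG) 59 and 61 bases before the start sites. Of 9 class II and Ciita genes searched, 7 had a RefSeq promoter, with 8 promoters in all. The X box core was in 5 of these 8 and the Y box in 7 of 8, against 9.85% and 37.4% of all 32851 promoters. A match is a run of letters and not a measured binding site.

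Timd4, a receptor for phosphatidylserine on dying cells, and Pf4, the chemokine platelet factor 4, are shown because they were the members of the resident gene list past 2-fold between the conditions. Timd4 lies at chr11:46810549-46810848 and Pf4 at chr5:90772185-90772484, both on the + strand.
Timd4: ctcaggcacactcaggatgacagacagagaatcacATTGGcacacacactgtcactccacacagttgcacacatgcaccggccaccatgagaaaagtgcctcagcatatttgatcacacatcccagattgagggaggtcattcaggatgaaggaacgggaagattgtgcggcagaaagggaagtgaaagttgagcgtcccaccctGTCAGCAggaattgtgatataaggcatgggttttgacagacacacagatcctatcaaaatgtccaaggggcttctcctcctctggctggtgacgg
Pf4: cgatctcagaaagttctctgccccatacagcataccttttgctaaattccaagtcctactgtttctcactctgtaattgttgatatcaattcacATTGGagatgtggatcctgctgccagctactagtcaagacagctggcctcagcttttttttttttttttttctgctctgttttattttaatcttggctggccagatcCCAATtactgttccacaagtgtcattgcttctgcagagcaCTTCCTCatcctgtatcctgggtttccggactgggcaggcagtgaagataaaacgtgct
The Timd4 promoter held a MAF half-site 45 bases before the start site and a Y box 215 bases before it. Pf4 held a PU.1 site 9 bases before its start site and Y boxes 156 and 49 bases before it. Of 20 resident genes, 16 matched the table with 17 promoters, of which 3 held the MAF half-site and 4 the PU.1 site, against 4.67% and 13.6% of all promoters. The Y box was in 6 of the 17 (35.3%) and the X box core in 1 (5.88%), against 37.4% and 9.85% of all promoters.

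The depth of the members set what could be seen. Levels are given as UMIs of a gene per 1000000 UMIs of all genes in the cells named, and a ratio is a ratio of such levels. They held 1390443 UMIs in Sham and 1607201 in TAC, with medians of 1443 and 1820 UMIs per cell, so the TAC members were the deeper. The other gated macrophages, which passed the same gate with 1 or more class II or Ccr2 UMIs, were 559 cells in Sham and 599 in TAC with medians of 1467 and 1703 UMIs. Malat1, a nuclear RNA, took 4.68% and 4.88% of the members' UMIs and mitochondrial genes 0.532% and 0.429%. The libraries shared 32 barcode sequences, and 0 barcodes were members in both.

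A count of 0 UMIs depends on depth, so the members' share of the gated macrophages was also read after thinning. Among gated macrophages, 791 of 1350 Sham cells (58.6%, 55.9 to 61.2) and 732 of 1331 TAC cells (55.0%, 52.3 to 57.7) had no class II or Ccr2 UMI. After each cell was thinned to 1000 UMIs, with 1054 Sham and 1160 TAC cells deep enough, the expected shares were 66.4% (63.5 to 69.2) and 65.3% (62.5 to 68.0). The share was the lower in TAC both as measured and at equal depth, and the intervals of the libraries overlapped in both cases. In 1139 Sham and 1237 TAC fibroblasts thinned alike, which should lack these genes, 0.702% and 1.70% had a UMI of the set. The median depths of fibroblasts were 2706 and 2574 UMIs.

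**Figure D1:**
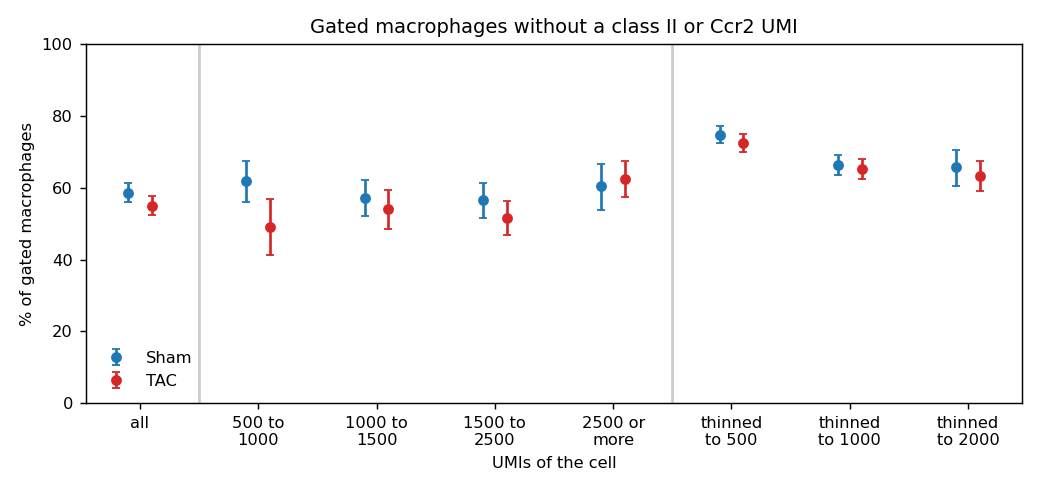
Share of gated macrophages without a class II or Ccr2 UMI (y axis, percent) for all cells, for cells in 4 ranges of UMIs and after thinning (x axis), in Sham (blue) and TAC (red), with exact 95% intervals. The share was 61.8% in Sham and 49.1% in TAC cells of 500 to 1000 UMIs and 60.4% and 62.5% in the deepest range.

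The label of resident macrophages was checked against markers the rule did not use. All 18 genes of a pan-macrophage list had 50 or more UMIs, among them Apoe with 1359 UMIs in Sham and 2430 in TAC, and C1qa, a subunit of the complement starter C1q, with 473 and 762. Of 20 genes of the TIMD4, LYVE1 and FOLR2 (TLF) resident list, 18 were seen in each library and Cd209d and Cd209b were at 0 in both. Summed over the list, the level was 5215 UMIs per 1000000 UMIs (5096 to 5336) in Sham members and 5315 (5203 to 5429) in TAC members, against 3726 and 4010 in the other gated macrophages and 381 and 467 in fibroblasts. Of the members' 7251 Sham and 8543 TAC UMIs, Stab1 and Wwp1 gave the larger part, Wwp1 with 4358 in both libraries together. Timd4, Lyve1, Folr2 and Cbr2 gave 92, 253, 107 and 472 of them in Sham and 258, 530, 179 and 586 in TAC. Of 16 monocyte genes, 11 were seen in Sham and 12 in TAC members, with a summed level of 276 and 291 against 362 and 330 in the other macrophages. Ly6c2, Chil3 and Treml4 were at 0 in both libraries' members, and Chil3 and Treml4 in the other macrophages too, while Itga4, also made by other leukocytes, gave 306 of the 384 Sham and 365 of the 467 TAC UMIs of the monocyte list. Macrophage and resident markers were thus present in the sum over members. Of single members, 433 in Sham (54.7%, 51.2 to 58.3) and 520 in TAC (71.0%, 67.6 to 74.3) had a UMI of Timd4, Lyve1, Folr2 or Cbr2. At 1000 UMIs the shares were 44.4% (40.4 to 48.5) and 55.6% (51.6 to 59.4), 28.5% and 34.4% in the other gated macrophages, and 0.527% and 0.889% in fibroblasts, so the other macrophages held these markers too.

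Transcripts of other cell types were present in the members, with cardiomyocyte genes at the highest summed level. Cardiomyocyte genes, led by Ttn, the giant spring protein of the sarcomere, with 1367 and 1138 UMIs, summed to 2342 in Sham and 1609 in TAC members, and were also found in fibroblasts at 1616 and 1178, all as UMIs per 1000000. All 12 of these genes were seen in the members of both libraries. Of the members, 72.3% in Sham and 54.2% in TAC held 3 or more UMIs of them. The 10 fibroblast genes summed to 972 and 804 in members against 13458 and 14046 in fibroblasts, and Myh11, Acta2 and Tagln of smooth muscle had 22, 17 and 24 UMIs in Sham, of which 81.8%, 100% and 87.5% lay in 1 cell, and 5, 4 and 5 in TAC. T cell genes gave 7 UMIs in Sham and 21 in TAC members, with Cd3e, Cd3d, Cd3g and Trbc2 at 0. The neutrophil list gave 159 and 125 UMIs, of which 153 and 120 were Csf3r, the receptor of granulocyte colony-stimulating factor, with Ly6g and Retnlg at 0 in both and S100a8 and S100a9 at 1 UMI each in TAC. Its summed level was 114 and 77.8 in members, 110 and 92.6 in the other macrophages and 0.878 and 3.16 in fibroblasts. The dendritic cell list gave 117 and 140 UMIs, of which 82 and 114 were the transcription factor Zbtb46, with Xcr1, Cd209a and Ccr7 at 0 in both. The part of such cells in the results was not tested. Bank1 gave 603 and 1139 of the 819 and 1282 UMIs of the B cell list, with Cd79a at 2 and 0.

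Members at the lower edge of the rule carried less C1q. Members with exactly 3 marker UMIs had a summed C1qa, C1qb and C1qc level of 564 (329 to 904; 24 cells) in Sham and 401 (238 to 634; 29 cells) in TAC, and barcodes just outside with 2 marker UMIs had 522 (35 cells) and 329 (30 cells). With 15 or more marker UMIs the level was 1014 in 427 Sham cells and 1285 in 486 TAC cells.

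The members were then set against the other gated macrophages of the same library to see what else went with the absence of class II transcripts. Ciita and H2-DMb1 of the class II machinery were lower in the members of both libraries, and Lyve1, Vsig4 and Fcna of the resident list were higher, while most genes of both lists stood within 2-fold. Of 7061 genes with 50 or more UMIs in Sham, rule genes left out, 67 were at least 2-fold higher in the members (0.949%) and 64 at least 2-fold lower (0.906%). Genes with this many UMIs are called tested, although no p-value was computed. In TAC, 72 of 7736 genes were at least 2-fold higher (0.931%) and 92 lower (1.19%). Both sides came from the same library, and their median depths differed little in Sham (1443 and 1467 UMIs) and more in TAC (1820 and 1703). Among cells of 1000 to 3000 UMIs, 42 genes were higher in Sham members and 60 lower in TAC members.

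Ciita and H2-DMb1 stood furthest apart among the tested class II accessory genes. The level of Ciita was 41.7 (31.7 to 53.9) in Sham members and 209 in the other Sham macrophages, a ratio of 0.200 (0.147 to 0.269), and 19.3 (13.1 to 27.4) against 203 in TAC, a ratio of 0.0951 (0.0633 to 0.139). H2-DMb1, a chain of the class II peptide-loading factor whose promoter is printed above, was 17.98 against 107 in Sham (ratio 0.168, 0.104 to 0.261) and 14.9 against 85.9 in TAC (0.174, 0.106 to 0.273). Both genes were lower in the members of each library with intervals that did not overlap those of the other macrophages. Its partner H2-DMa did not stand apart to that degree, with ratios of 0.680 in Sham and 0.904 in TAC. H2-DMa, with 69 UMIs in members of both libraries, overlaps Brd2 on the other strand with 246, and Ciita, with 89, overlaps Dexi with 85. A part of these other-strand genes in the ratios was not tested. Of the class II accessory list, 2 of 7 tested genes in Sham and 3 of 8 in TAC were at least 2-fold lower, Ciita and H2-DMb1 in both and Cd52 (0.430, 0.265 to 0.687) in TAC, where alone it had enough UMIs to be tested.

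The TLF list had 3 of 15 tested genes at least 2-fold higher in Sham members and 5 of 16 in TAC members, with a median log2 ratio of 0.54 and 0.56 against -0.01 and -0.01 over all genes tested. Lyve1, a hyaluronan receptor, was 182 (160 to 206) in Sham members against 80.8 in the other macrophages and 330 (302 to 359) against 147 in TAC, a ratio of 2.25 in both. Vsig4, a receptor for complement C3 fragments, had ratios of 2.37 (1.75 to 3.26) and 2.71 (2.19 to 3.37). Fcna, a secreted lectin of the ficolin family, had ratios of 2.52 and 2.72 on 43 and 73 member UMIs. Folr2, a folate receptor, had 1.71 in Sham and 2.38 in TAC, and Ninj1, which acts in rupture of the plasma membrane, had 1.86 and 2.08. Timd4 differed less, with ratios of 1.25 and 1.38, and so did Cbr2, a carbonyl reductase, with 1.45 and 1.47.

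**Figure D2:**
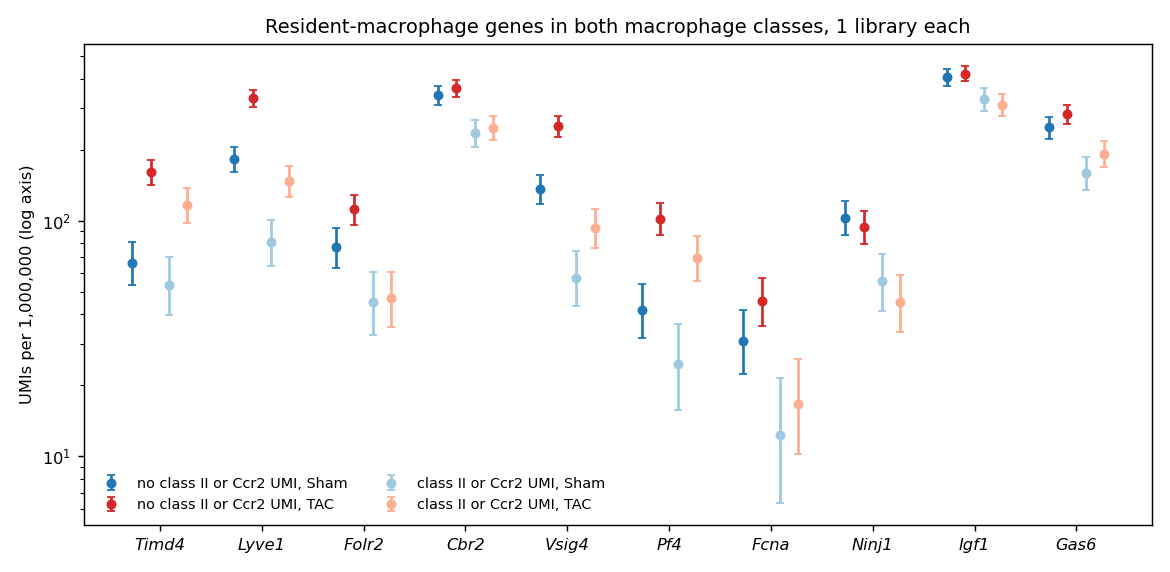
Levels of 10 genes of the resident list (x axis) as UMIs per 1000000 UMIs on a log axis, in members (dark) and other gated macrophages (pale) of the Sham (blue) and TAC (red) libraries, with exact Poisson 95% intervals. Lyve1, Vsig4 and Fcna stood above the other macrophages by at least 2-fold in each library, and Timd4 and Pf4 were higher in TAC than in Sham in both kinds of macrophage.

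By the naming rule, the 10 genes highest in Sham members were Wdr62, Slc40a1, Colec12, Plekhg5, Anapc15, Vsig4, Lyve1, Aff3, Ednrb and Pdgfc. In TAC, 8 of these 10 also had ratios over 1 and 4 were at least 2-fold higher. Slc40a1, the iron exporter ferroportin, was 76.2 against 20.4 in Sham (3.73, 2.30 to 6.35) and 64.1 against 30.9 in TAC (2.08, 1.41 to 3.11). The haem-degrading enzyme Hmox1 had ratios of 2.18 and 1.97. Colec12, a scavenger receptor of the collectin family, was 980 against 444 in Sham (2.21) and 878 against 450 in TAC (1.95), and fibroblasts also expressed it, with a UMI in 44.0% of cells in each library. Ednrb, an endothelin receptor, had ratios of 2.66 and 2.08, and the growth factor Pdgfc 2.06 and 1.82. Wdr62, a spindle protein, and Aff3, a nuclear factor of transcription, went the other way in TAC, at 0.477 and 0.712, on 16 and 42 member UMIs.

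The 10 genes lowest in Sham members were Emb, H2-DMb1, Ciita, Clec4b1, Coro2a, Ipcef1, Gm15987, Klra2, Vcan and Sorl1, and 9 of the 10 were also at least 2-fold lower in TAC. Clec4b1, a C-type lectin, was 15.8 against 85.9 in Sham (0.184) and 12.4 against 45.0 in TAC (0.276). Klra2, of the Ly49 receptor family, had ratios of 0.286 and 0.370, and Sorl1, a sorting receptor, 0.318 and 0.294. Vcan was the exception, with 0.241 in Sham and 1.02 in TAC, and 52.6% and 56.2% of its UMIs in the other macrophages lay in 1 cell each. Over all genes, 11 of 59 that were at least 2-fold higher in Sham and tested in TAC were so in TAC too (18.6%; 22.0% of the 50 TAC genes tested in Sham). For lower genes it was 22 of 54 (40.7%; 37.3% of the 59 TAC genes).

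Interleukin 1 beta (Il1b), a cytokine of inflammatory macrophages, was seen chiefly outside the members. Its level was 9.35 in Sham and 11.2 in TAC members, and 30.7 and 111 in the other macrophages. The ratio was 0.305 (0.146 to 0.602) in Sham and 0.101 (0.0580 to 0.166) in TAC. Cells thinned to 1000 UMIs had an Il1b UMI in 1.39% of TAC members and 7.23% of the other TAC macrophages. Several genes that ranked high or low in TAC alone rested on 1 cell: 79.0% of the Csmd1 UMIs and 66.1% of the Xirp2 UMIs of TAC members, and 93.6% of the C7 and 91.3% of the Nrg1 UMIs of the other TAC macrophages, were in a single cell.

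Gated macrophages were split by their number of class II and Ccr2 UMIs into 0 (the members), 1, 2, and 3 or more. From the first to the last step Ciita was 41.7, 104, 274 and 270 in Sham and 19.3, 77.5, 149 and 291 in TAC. Lyve1 ran the other way, at 182, 87.6, 78.2 and 76.2 in Sham and 330, 169, 149 and 134 in TAC. Pdgfc was 319, 224, 176 and 91.4 in Sham and 293, 235, 194 and 109 in TAC, so for this gene cells with 1 or 2 UMIs lay between the ends. Ciita in Sham was alike in the last 2 steps, and Lyve1 in Sham was lower from 1 UMI on, with overlapping intervals after that. Il1b was 9.35, 30.1, 26.1 and 32.7 in Sham and 11.2, 44.3, 64.6 and 164 in TAC. Colec12 also fell at each step, at 980, 605, 391 and 333 in Sham and 878, 636, 482 and 335 in TAC. In Sham, other genes followed no steady order, such as Timd4 at 66.2, 68.4, 45.6 and 43.5 and Ednrb at 73.4, 38.3, 6.52 (1 UMI) and 26.1. In TAC both fell at each step, Timd4 at 160.5, 143.9, 109.3 and 102.2 and Ednrb at 196.0, 152.2, 134.1 and 48.75. The median depth of the steps was 1381 to 1532 UMIs in Sham and 1647 to 1874 in TAC.

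**Figure D3:**
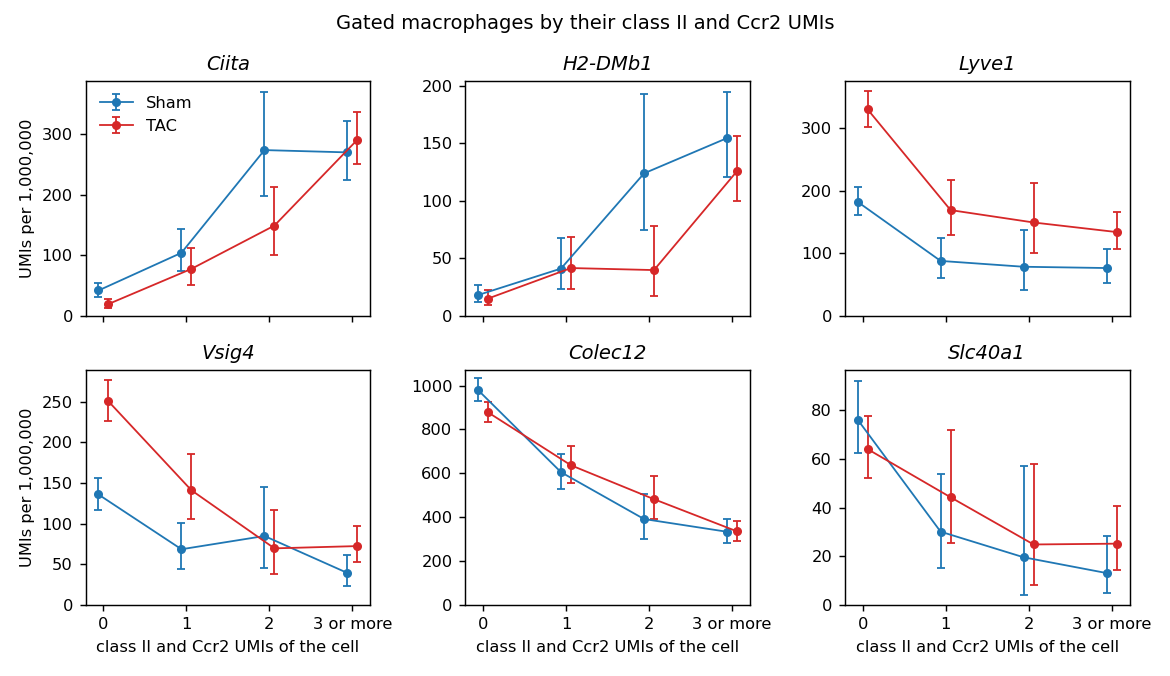
Levels of 6 genes (y axis, UMIs per 1000000 UMIs) in gated macrophages with 0, 1, 2, or 3 or more class II and Ccr2 UMIs (x axis), in Sham (blue) and TAC (red), with exact Poisson 95% intervals. Ciita and H2-DMb1 were lowest and Lyve1, Vsig4, Colec12 and Slc40a1 highest in cells with 0, which are the members.

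Members also varied among themselves. Members with a UMI of Timd4, Lyve1, Folr2 or Cbr2 had medians of 1681 UMIs in Sham and 2126 in TAC, and those without had 1224 and 1334, so the split followed depth in part. Tfrc, the transferrin receptor, was 118 in members with such a UMI and 58.1 in those without in Sham, and 151 and 65.2 in TAC. Its ratios of 2.03 and 2.32 were 2.08 and 1.85 among cells of 1000 to 3000 UMIs. The growth factor receptor Fgfr1 had ratios of 1.66 and 1.997 (1.77 and 1.82 in that range) and the chemokine Ccl9 1.79 and 2.36 (1.91 and 2.09). Ipcef1 and Sorl1, 2 of the genes lowest in Sham members, were lower in members with a resident UMI, with ratios of 0.334 and 0.386 in Sham and 0.266 and 0.304 in TAC. Cell-cycle genes were few, with 0.885% of Sham and 1.37% of TAC members holding 3 or more of their UMIs.

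TAC and Sham members were compared next, which asks what pressure overload went with in these cells. Some glucocorticoid-induced and clock genes were lower in TAC members, and a few resident genes and chemokines were higher. Of 7972 genes with 50 or more UMIs in both libraries together, 250 were at least 2-fold higher in TAC (3.14%) and 149 at least 2-fold lower (1.87%). Higher genes were thus 62.7% of all genes past 2-fold, and 47.6% among genes with no annotated gene on the other strand, a restriction chosen after the values were seen. With 1 library a condition, and with macrophages taken from whole hearts, fewer cells of a kind and less RNA per cell cannot be told apart in these sums.

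The 12 genes lowest in TAC members were Jaml, Zbtb16, Ptgds, Nrg2, Ccnd3, Wdr62, Fkbp5, Coro6, H2-K2, Gm42031, Fmo2 and Pnpla2. Zbtb16, a transcription factor induced by glucocorticoids, had 1774 UMIs in Sham and 349 in TAC, a level of 1276 (1217 to 1337) against 217 (195 to 241) and a ratio of 0.170 (0.151 to 0.191). Thinned to 1000 UMIs, 65.6% of Sham and 17.1% of TAC members had a Zbtb16 UMI. Fkbp5, a co-chaperone of the glucocorticoid receptor, was 1276 against 470 with a ratio of 0.369 (0.338 to 0.402). The cyclin Ccnd3 was 1945 against 696 with a ratio of 0.358 (0.334 to 0.384). Ptgds, a prostaglandin D2 synthase, was 48.2 against 4.98 with a ratio of 0.103 (0.0428 to 0.215), and Jaml, an adhesion protein of leukocytes, was 37.4 on 52 UMIs against 1.87 on 3, with a ratio of 0.0499 (0.00997 to 0.154). Nrg2, a neuregulin, was 281 against 84.6, and Pnpla2, the triglyceride lipase of lipid droplets, 43.9 against 11.8.

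Lower levels of these genes were also found outside the members. The ratio was also below 1 in the other gated macrophages for 11 of the 12 genes and in fibroblasts for 11 of the 12. Over all genes tested there, the median log2 ratio was 0.009 in the other macrophages and 0.015 in fibroblasts, so about as many genes lay below 1 as above. Zbtb16 had a ratio of 0.186 in the other macrophages and 0.286 in fibroblasts, and Fkbp5 0.406 and 0.556. Jaml was 0.136 in the other macrophages and was nearly unseen in fibroblasts, at a level of 0.293 and 0.287. Wdr62 was the exception among macrophages, at 0.220 in members and 2.55 in the other macrophages, where it had 8 UMIs in Sham and 25 in TAC. Nrg2 was the exception in fibroblasts, at 1.39 with a level of 8.48 in Sham. Of 10 tested cardiomyocyte genes, 2 were at least 2-fold lower in TAC members and 0 higher, against 1.87% of all genes lower. Their median log2 ratio was -0.26 in members and -0.72 in the other macrophages, and 3 had ratios above 1 in members. A part of stray cardiomyocyte RNA in the lower genes was not tested.

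Of 14 tested glucocorticoid-induced genes, 4 were at least 2-fold lower in TAC members and 0 higher, with a median log2 ratio of -0.51 against -0.01 over all genes. Besides Zbtb16 and Fkbp5 these were Per1, which is also a clock gene, at 160 against 78.4 (0.491, 0.391 to 0.614), and Ddit4, an inhibitor of mTORC1 signalling, at 0.422 (0.238 to 0.728). Tsc22d3, the glucocorticoid-induced leucine zipper protein, was 421 against 290 with a ratio of 0.688 (0.608 to 0.778), and Klf9 had 0.721 (0.597 to 0.869). The receptor gene Nr3c1 was higher in TAC, at 1.32 (1.18 to 1.47), and Mt1, Dusp1 and Zfp36 had 0.955, 0.974 and 1.04 with intervals that held 1. Of 11 tested clock genes, 2 were at least 2-fold lower, Per1 and Per2 (0.350, 0.194 to 0.608), against 1.87% of all genes. The 2 became 1 with a marker sum of 5 or more or with 1 class II or Ccr2 UMI allowed, where Per1 was short of 2-fold, and 3 without the barcodes marked as doublets. Under these 3 settings the 4 glucocorticoid-induced genes became 3. Tef had 0.565 and Rora 0.746, while Arntl and Nr1d2 had 1.01 and 1.03. Of the 11 clock genes, 8 had ratios below 1 and 3 above, with intervals clear of 1 for 5 and 1 of them. The Clock gene itself was higher in TAC. It was 205 in Sham and 275 in TAC in members with a UMI of Timd4, Lyve1, Folr2 or Cbr2, and 226.5 and 234 in those without. The study's methods place animal experiments mostly in the morning, at the same time for all groups, without an hour for each library, and a part of the time of day in these values was not tested.

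**Figure D4:**
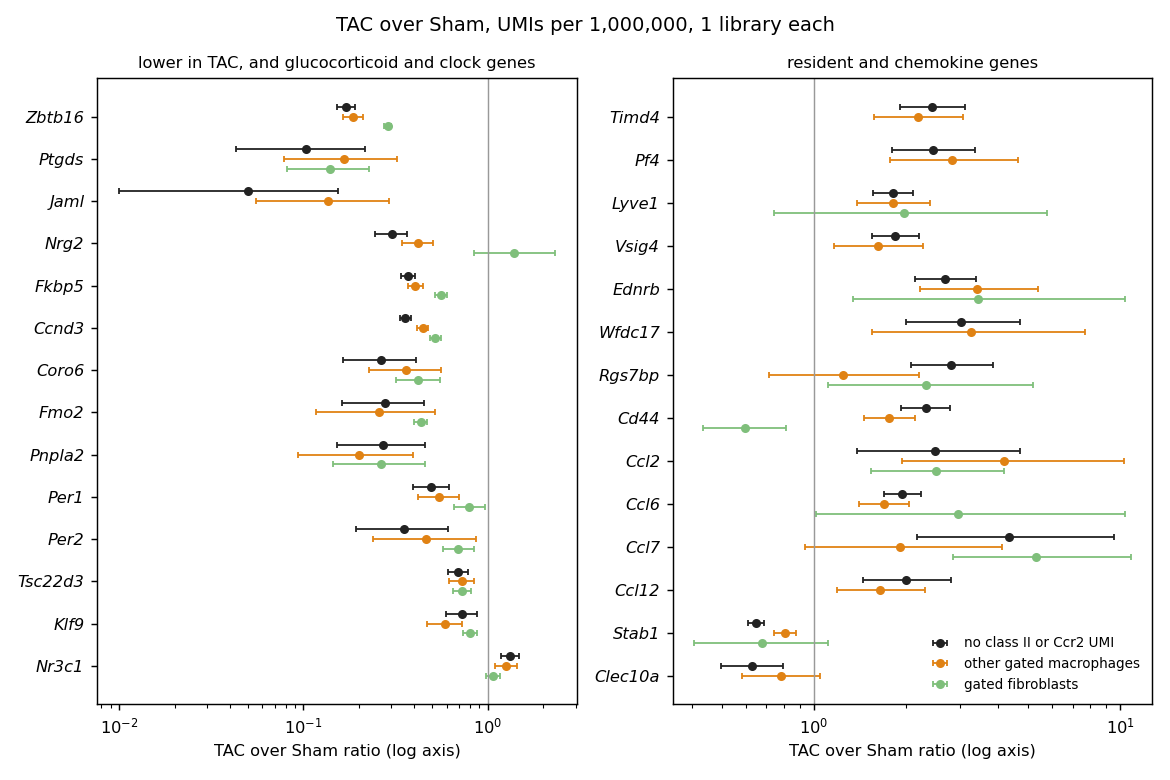
TAC over Sham ratio (x axis, log) of 28 genes in members (black), other gated macrophages (orange) and fibroblasts (green), with exact 95% intervals; points with fewer than 20 UMIs in both libraries together are left out. Zbtb16, Fkbp5, Ccnd3 and Per1 were below 1 in all 3 cell types, and Timd4, Pf4, Lyve1, Vsig4 and Ednrb were above 1 in both kinds of macrophage.

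Resident genes did not move as 1 group. Of 16 tested genes of the TLF list, 2 were at least 2-fold higher in TAC members and 0 lower, with a median log2 ratio of 0.33 against -0.01 over all genes. Timd4 was 66.2 (53.3 to 81.1) in Sham and 161 (142 to 181) in TAC members, a ratio of 2.43 (1.91 to 3.11), and Pf4 was 41.7 (31.7 to 53.9) and 102 (87.0 to 119), a ratio of 2.45 (1.80 to 3.36). Lyve1 had 1.81 (1.56 to 2.11), Vsig4 1.84 (1.55 to 2.20) and Folr2 1.45 (1.13 to 1.86). In the other direction, Stab1, a scavenger receptor with 2595 UMIs in Sham and 1944 in TAC, had 0.648 (0.611 to 0.688), and the lectin Clec10a 0.628 (0.497 to 0.792). Igf1, the growth factor, and Cbr2 had 1.04 and 1.07 with intervals that held 1. In the other gated macrophages Timd4 had 2.18, Pf4 2.82, Lyve1 1.82 and Vsig4 1.62, so both kinds of macrophage carried higher levels in TAC.

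The share of members with a Timd4 UMI, thinned to 1000 UMIs, was 7.57% (5.59 to 9.96) in Sham and 12.5% (10.1 to 15.3) in TAC, against 0.0878% and 0.162% in fibroblasts. For Lyve1 the shares were 14.97% (12.2 to 18.1) and 23.1% (19.9 to 26.6), against 0.263% and 0.242%. Most members at this depth thus showed no UMI of either gene, and a share this low counts captured molecules and not cells that express the gene. For Pf4 the shares of 4.77% and 6.94% had intervals that overlapped.

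Several chemokine genes had higher summed levels in TAC members. Of 11 tested chemokine and cytokine genes, 4 were at least 2-fold higher, against 3.14% of all genes, and 0 lower, with a median log2 ratio of 0.75. The 4 were Ccl2 and Ccl7, which attract monocytes through CCR2, Ccl12, and Pf4, which the resident list also holds. Ccl7 had 10 UMIs in Sham and 50 in TAC (4.33, 2.17 to 9.57), Ccl2 had 16 and 46 (2.49, 1.38 to 4.71) and overlaps Gm17268 on the other strand, and Ccl12 had 54 and 125 (2.003, 1.44 to 2.81). Ccl12 stood at the threshold and was short of 2-fold without the barcodes marked as doublets, with a marker sum of 5 or more, and with 1 class II or Ccr2 UMI allowed. Ccl6 was 209 against 406, just short of 2-fold at 1.95 (1.69 to 2.24), and Ccl9 had 1.69. Cxcl16 and Tnfsf12 were lower, at 0.755 (0.584 to 0.975) and 0.592 (0.384 to 0.905). In fibroblasts Ccl2 and Ccl7 had ratios of 2.50 and 5.32, and in the other macrophages 4.18 and 1.90.

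Of 11 tested growth factor genes, 3 were at least 2-fold lower in TAC members, against 1.87% of all genes, and 0 higher, with a median log2 ratio of -0.12. The 3 became 1 when members could have 1 class II or Ccr2 UMI. Vegfa, which drives growth of blood vessels, had 96 UMIs in Sham and 39 in TAC (0.351, 0.236 to 0.515), Vegfc, which drives growth of lymphatic vessels, 39 and 18 (0.399, 0.215 to 0.715), and the semaphorin Sema6a 132 and 71 (0.465, 0.344 to 0.626). In the other macrophages the ratios were 0.471, 1.39 and 1.10, so Vegfc and Sema6a stood near or above 1 there, and 30.8% of the Vegfc UMIs of Sham members were in 1 cell. Hfe, an iron sensor, had 0.334 (0.218 to 0.502) and was the only 1 of 12 tested iron and haem genes past 2-fold. Of the 18 tested pan-macrophage genes 0 passed 2-fold in either direction, Lyz2, the macrophage lysozyme, having 1.74 (1.55 to 1.96), Apoe, a lipid carrier, 1.55 (1.45 to 1.65), and Mertk, a receptor for dying cells, 0.725 (0.669 to 0.786). Of 10 tested interferon-induced genes 0 passed 2-fold, with a median log2 ratio of -0.24. Macrophage transcription factors (14 tested), complement genes (14) and lipid and lysosome genes (18) also had 0 past 2-fold, with medians of 0.06, 0.22 and 0.23. Of 6 tested class II accessory genes Ciita alone was past 2-fold, lower in TAC at 0.462 (0.289 to 0.727), and of 10 immediate-early genes Ier3 alone, higher at 2.06 (1.12 to 3.95).

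The study that deposited the data concerns CARD9, an adaptor that joins BCL10 and MALT1 to signal from C-type lectin receptors to NF-kB, and the deubiquitinase OTUD1. The paper reports higher CARD9 and OTUD1 in hearts infused with isoproterenol, another model than TAC, and shows single-cell Card9 for the Sham group. The TAC over Sham ratios below therefore do not test that report. Card9 had 46 UMIs in Sham and 53 in TAC members, a level of 33.1 (24.2 to 44.1) and 33.0 (24.7 to 43.1) and a ratio of 0.997 (0.659 to 1.51). Thinned shares were 3.12% and 3.86% of members, and without thinning 42 of 791 Sham (5.31%) and 49 of 732 TAC members (6.69%) had a Card9 UMI, against 0 of 1167 and 1 of 1252 fibroblasts. The interval of the Card9 ratio leaves room for a change of about 1.5-fold either way. Bcl10 had 0.676 (0.4999 to 0.911), Malt1 1.06 (0.799 to 1.41) and the receptor Clec7a (dectin-1) 0.371 (0.188 to 0.697) on 35 and 15 UMIs, the only 1 of 18 tested genes of the list past 2-fold. Otud1 had 3 UMIs in Sham and 23 in TAC members, of which 87.0% lay in 1 cell, and 4 of 732 TAC members had any. In the other gated macrophages Card9 had a ratio of 0.956.

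The 12 genes highest in TAC members were Gm17268, Uchl4, Gm31243, 4930479D17Rik, Gm12353, Gm11342, Gm15261, Atp5o, Glp2r, Far1os, Gm37240 and Gm2245. By GENCODE M21 (GRCm38), 11 of these 12 overlap a gene on the other strand, which in most cases had more UMIs than the named gene. Of all 7972 tested genes, 3772 overlap a gene on the other strand. Glp2r, the receptor of glucagon-like peptide 2 (chr11:67661502-67771153, - strand), had 77 and 320 UMIs and lies opposite Gas7 with 1735, and Gm31243 (chr3:135904344-136167184, + strand) had 41 and 250 opposite Bank1 with 1742. Atp5o, a subunit of ATP synthase, had 414 and 1520 opposite Itsn1 with 3621. Their ratios were 3.60, 5.28 and 3.18, and those of the genes opposite were 1.63, 1.63 and 1.57.

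The pattern held over genes of this kind as a whole. Of 217 tested genes whose other-strand neighbour had at least 5 times their UMIs, 32.3% were at least 2-fold higher in TAC members, with a median log2 ratio of 0.63. Of 4195 genes with no gene on the other strand, 1.86% were at least 2-fold higher and 2.05% lower, with a median of -0.02. The summed level of the 217 genes was 6119 in Sham and 9856 in TAC members. The median was 0.73 in the other macrophages, 0.66 in fibroblasts and 0.61 in endothelial cells. Whether the counts of such genes are reads of the gene or of its neighbour was not tested, and their ratios are given as uncertain.

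**Figure D5:**
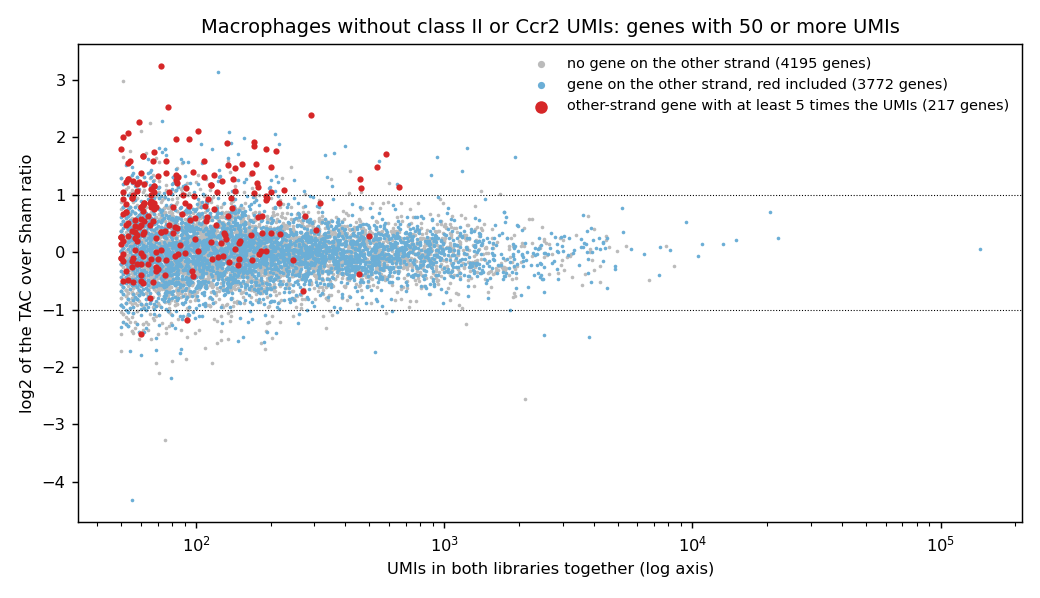
Log2 of the TAC over Sham ratio in members (y axis) against the UMIs of each gene in both libraries together (x axis, log), for genes with 50 or more UMIs and some in each library; dotted lines mark 2-fold. Genes whose other-strand neighbour had at least 5 times their UMIs (red, 217) had a median of 0.63, and genes with no other-strand gene (grey, 4195) a median of -0.02.

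Among genes with no gene on the other strand, a restriction made after the values were seen, the 12 highest in TAC members were Ccl7, Cd44, Ednrb, F630028O10Rik, Gm14636, Pf4, Ptrh2, Rgs7bp, Snx2, Timd4, Wfdc17 and 4930479D17Rik, and all 12 had ratios above 1 in the other macrophages. The median log2 ratio there was -0.005 over all tested genes with no gene on the other strand. Ednrb was 73.4 (59.8 to 89.1) in Sham and 196 (175 to 219) in TAC members, a ratio of 2.67 (2.13 to 3.37). Cd44, a hyaluronan receptor, was 117 against 271 (2.31, 1.93 to 2.79) and Wfdc17, a secreted protein of macrophages, 21.6 against 65.3 (3.03, 2.002 to 4.71). Rgs7bp, an anchor of regulators of G protein signalling, was 41.0 against 115 in members (2.81, 2.08 to 3.85) and 23.5 against 29.2 in the other macrophages (1.24), a difference that was not tested. The endosomal protein Snx2 was 364 against 732, a ratio of 2.01 (1.81 to 2.24). Under the same restriction the 12 lowest were Bmf, Coro6, Fmo2, Gm42031, H2-K2, Pnpla2, Ptgds, Slc27a1, Slc2a3, Tnnt2, Trp53inp1 and Zbtb16. Tnnt2 belongs to the cardiomyocyte list.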

How the data were processed

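Hearts of C57BL/6 mice were dissociated and sequenced by the authors on the 10X Chromium 3′ platform, 1 Sham and 1 TAC library. The deposited values are raw UMI counts per gene and barcode in filtered matrices made with Cell Ranger 7.1.0 (submitters' processing notes and matrix headers), not normalised. The genome build was not given in the sources used here. Gene positions and strands came from GENCODE M21 (GRCm38), which placed 52081 of 55357 gene identifiers (94.1%).

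The libraries held 28146691 UMIs in 9935 Sham barcodes and 29108986 in 9932 TAC barcodes, with medians of 1964 and 2143 per barcode. The members, gene lists and tests were chosen with earlier results of these data known. UMIs of members were summed per library and given per 1000000 UMIs. Exact 95% intervals were Poisson for levels, Clopper-Pearson for shares and conditional binomial for ratios, and cover counting error only. With 1 library a condition no test across samples was possible. A gene was tested when it had 50 or more UMIs in both groups together and counted as apart at 2-fold. Rule genes were left out of the comparison of members with other gated macrophages.

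Named genes were the 12 with the highest lower bound and the 12 with the lowest upper bound of the TAC over Sham interval, the 10 of each kind for members against other macrophages in Sham, list members past 2-fold or with the most UMIs, and Card9, Bcl10, Malt1 and Otud1. Mitochondrial, ribosomal protein, haemoglobin and rule genes were left out of these ranks. Other genes named, among them Hmox1, Tfrc, Il1b and those ranked in TAC alone, were chosen after their values were seen. Doublets were kept. Scrublet, run in scanpy 1.11.5 at an expected rate of 7.95%, marked 459 Sham (4.62%) and 479 TAC barcodes (4.82%), of them 37 and 42 members, and an alternative left these out. Other alternatives changed the gate, scaling, depth, UMI minimum and fold. Scripts used Python 3.11.15, numpy 2.4.6, scipy 1.17.1 and pandas 2.3.3 and were tested on simulated data. Some results of single genes are not reported here and were left out of the counts of genes compared between members and other macrophages by their TAC over Sham ratios.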

Additional observations from a re-analysis of the deposited data

Results flagged for a closer look

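Of 285 named genes compared, 4 had TAC over Sham ratios on opposite sides of 1 in the members and in the other gated macrophages, with both intervals clear of 1. Lrp1, an endocytic receptor, had 1.23 in the members and 0.811 in the other macrophages. Phrf1, a ubiquitin ligase, had 1.35 and 0.701. The nuclear RNA Malat1 had 1.04 and 0.977. Xirp2, a protein of striated muscle, had 1.79 and 0.443, with 66.1% of its UMIs in TAC members in 1 cell. With 1 library a condition the differences between the members and the other macrophages were not tested.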

How the results depend on the processing

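No paired analysis was possible because each group had 1 library, so that leaving out a replicate was not possible either, and condition cannot be told apart from library. Intervals cover counting error, and low genes rest on few UMIs. The members' share of barcodes was 7.39% in Sham and 6.84% in TAC with a marker sum of 5 or more, 7.006% in Sham with Ryr2 and Myh6 under 0.3%, and 10.1% and 9.12% when 1 class II or Ccr2 UMI was allowed, which also gave 74.0% and 68.1% of gated macrophages. Thinning to 500, 1000 and 2000 UMIs gave 74.8%, 66.4% and 65.6% of gated macrophages in Sham and 72.4%, 65.3% and 63.3% in TAC. Genes at least 2-fold higher and lower in TAC members were 607 and 403 with a minimum of 20 UMIs, 102 and 51 with 100, 1834 and 1594 with 1 in each library, 753 and 715 at 1.5-fold, and 78 and 86 among genes with no other-strand gene, an alternative chosen after seeing the data. Under the other settings of cells and scaling, and without the top cell of each gene, they were 229 to 269 and 128 to 184. For members against other macrophages, a minimum of 20 UMIs gave 239 higher and 242 lower genes in Sham and 283 and 310 in TAC, and one of 100 gave 19 and 20, and 28 and 39. Others with 3 or more class II UMIs gave 159 higher genes in Sham and 143 in TAC, and cells of 1000 to 3000 UMIs gave 42 higher in Sham and 60 lower in TAC. In that depth range C7, Csmd1 and Nrg1 turned to 1.71, 0.571 and 1.998 in TAC, and Otud1 turned to 0.863 between the conditions with a marker sum of 5 or more. Each of these 4 genes had most UMIs of 1 group in 1 cell. Of 610 values of 61 genes between the conditions, 606 stayed within the interval of the reported value, as did 75 of 92 values of 46 genes between members and other macrophages. Of 100 counts of list members past 2-fold, 96 stayed within 1.5 times. The others were clock genes lower in TAC, 1 under both a marker sum of 5 or more and 1 class II or Ccr2 UMI allowed, growth factors lower, 1 under the latter, and glucocorticoid-induced genes higher, 1 under the former.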
